A study of Drosophila melanogaster with 14 samples.

Results

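The γ and α/β Kenyon cells of the adult Drosophila mushroom body were compared gene by gene, from the RNA of their purified nuclei. The 4 γ libraries and the 6 α/β libraries, 10 of the 14 libraries of the study, were taken by the driver and the Kenyon cell subtype that GEO's labels give. Of the 13931 genes in the authors' gene table, the 8646 with at least 10 TPM (transcript abundance, corrected for length and scaled to a fixed total per library) in at least 1 of the 14 libraries were tested. No expression value was used to choose the libraries.

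Kenyon cells are the intrinsic neurons of the mushroom body, the centre of olfactory learning in the fly brain. They are born in sequence from the same neuroblasts, γ cells first, then α′/β′ cells, and α/β cells last. The branched larval γ axons are pruned at metamorphosis and regrow into a single medial lobe, whereas α/β axons branch into a vertical and a medial lobe and are not pruned. Both classes receive odour input from projection neurons and are modulated along their axons by dopamine, serotonin, octopamine and peptides.

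Each subtype was labelled by a split-GAL4 driver, a pair of half-transcription factors that act only where both are made, which expressed the nuclear envelope protein UNC84 fused to GFP (UAS-unc84::2XGFP). The γ libraries came from MB607B (hemi-drivers R19B03 and R39A11, γd cells) and MB131B (R13F02 and R89B01, γm+d cells), with 2 replicates each. The α/β libraries came from MB371B (R13F02 and R85D07, α/βp), MB185B (R52H09 and R18F09, α/βs) and MB594B (R13F02 and R58F02, α/βc), again with 2 replicates each. All groups were adult progeny 2 to 5 days old of both sexes, in the isogenic MJ2 background derived from w1118 (isoCJ1), and every library pooled the heads of many flies. MB131B also labels γd cells, so its libraries are a mixture, and each of the lines labels small numbers of neurons outside the mushroom body. The other 4 libraries, of the α′/β′ class (MB370B and MB418B), entered the fit so that all libraries shared an estimate of the spread.

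TPM are scaled to the same sum in every library, so the depth behind a value is unknown, and the number of libraries limits the precision. Genes above 0 TPM numbered 5632 and 7601 in γd, 8836 and 10366 in γm+d, 6534 and 9602 in α/βp, and 9403 to 10323 in the α/βs and α/βc libraries. A gene at 0 is therefore given only as listed at 0. Kenyon cell markers were present throughout: 8 of them, such as ey and rut, summed to 6048 to 9691 TPM in γ and 4582 to 10439.8 TPM in α/β, and none of the 8 was called by limma (3 had an unadjusted p under 0.05). The glial regulator repo stayed under the 10 TPM minimum. Markers of other cells also differed between the classes. The 10 photoreceptor genes summed to 464 to 1094 TPM in γ and 1360.0 to 4104 TPM in α/β, and 1 of them was called lower in γ. The 6 fat body genes summed to 423 to 1331 TPM in γ and 1644 to 6117 TPM in α/β, and none was called by limma (3 had an unadjusted p under 0.05). In both lists the sums of the 4 γ libraries lay below those of the 6 α/β libraries. The photoreceptor gene called was ninaE, with medians of 441 TPM in γ and 1337 in α/β. Not every gene of that list need be foreign to Kenyon cells. Its norpA had medians of 240 and 321 TPM, and 668 to 829 TPM in the α′/β′ libraries. The 9 glial genes summed to 49.8 to 166 TPM in γ and 141 to 225 in α/β. The 3 genes of GABAergic neurons summed to 147 to 287 and 223 to 320 TPM, and none was called by limma (1 had an unadjusted p under 0.05). Their medians in γ and α/β were 6.86 and 54.3 TPM for Gad1, 3.0 and 7.14 for Gat, and 212 and 194 for VGAT. For Gad1 the study proposes that its α/βp and α/βc drivers act weakly in some GABAergic neurons elsewhere. The part of these other cells in the differences that follow was not tested. As these are bulk libraries, fewer cells of a type and less RNA per cell cannot be told apart.

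The first question was which genes distinguish the earliest-born class from the latest-born one. A gene was called when limma gave an adjusted p under 0.05 and the classes differed at least 2-fold on the log2(TPM + 1) scale. Of the 8646 genes, 124 (1.43%) were higher and 144 (1.67%) lower in γ, together 268 (3.10%). Among the genes lower in γ, 9 were copies of the histone gene His2A with identical values, and counting such copies once left 136. Of the called genes, 48 rose and 60 fell by 3 or more on the log2 scale. The median difference over all genes tested was -0.11 on the log2 scale. All 4 γ libraries lay above all 6 α/β libraries in 113 genes (1.31% of those tested), and below them in 260 genes (3.01%). That separation held for 74 of the 124 higher and for 107 of the 144 lower genes.

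The balance of the calls depended on the scaling. Without quantile normalization 71 genes were higher and 158 lower, with a median over all genes of -0.60, and with median-ratio scaling 102 were higher and 140 lower, with a median of -0.34. Without γd and α/βp, which hold the libraries with the fewest genes above 0, the calls numbered 189 higher and 174 lower among 8154 genes, and included 92 of the 124 and 98 of the 144. With the driver as a random block, so that libraries of a line are not counted as independent, 83 genes were higher and 102 lower, and 9 of the 63 named called genes lost their call: Eip93F (adjusted p = 0.0645), fru and mAChR-B (both 0.0569), mAChR-A (0.069), Irk1 (0.0569), ed (0.0878), Nplp1 (0.0832), Nplp2 (0.139) and Oct-TyrR (0.147). With 1 value per driver, which leaves 2 γ and 3 α/β values, 25 were higher and 32 lower, and 32 named genes lost their call, these 9 and dan, CG42655, CG43056, CG34178, br, her, Pde6, Epac, Octbeta3R, Hug, ITP, SIFaR, TkR86C, dpr3, dpr6, dpr8, dpr15, mbc, tipE, Trpm, Syt12, Rbp6 and per, with an adjusted p from 0.0553 (Octbeta3R) to 0.363 (mAChR-A).

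**Figure D1:**
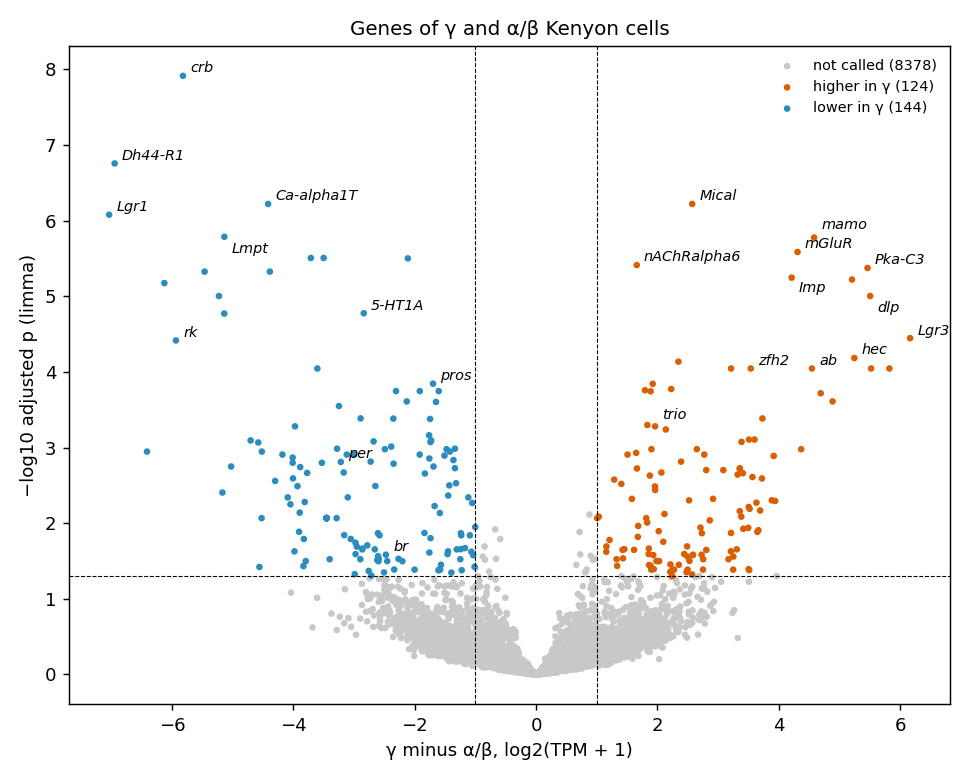
Difference between γ and α/β Kenyon cells on the log2(TPM + 1) scale (horizontal axis) against −log10 of limma's adjusted p (vertical axis), 1 point per gene tested. Dashed lines mark the 2-fold difference and the adjusted p of 0.05. The 124 genes higher in γ (orange) and the 144 lower (blue) lie outside them, and crb, at -5.82, has the smallest adjusted p.

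Described first are the called genes with the largest differences, 12 in each direction, among those whose classes did not overlap and whose higher class had a mean of at least 20 TPM. The 12 higher in γ include the receptors Lgr3, hec and mGluR, and ab, mamo and Imp, which are described further on. Lgr3 (FBgn0039354, 3R:25665809-25677214, plus strand), the leucine-rich repeat receptor for the relaxin-like peptide Ilp8, had 4.09 and 46.8 TPM in γd and 188 and 337 in γm+d. In α/β it was listed at 0 in both α/βp libraries and in α/βs replicate 2, at 0.14 TPM in α/βs replicate 1 and at 2.66 and 1.88 TPM in α/βc. Every γ library thus lay above every α/β library, but γd lay below γm+d. The log2 difference was 6.16 (SE 0.71, adjusted p = 3.58e-05).

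dlp (FBgn0041604, 3L:14632601-14671609, plus strand), which encodes a glypican that carries Wnt and Hedgehog ligands on the cell surface, had 198 and 99 TPM in γd and 179.9 and 209.5 in γm+d. Over the α/β libraries it ran from 1.07 to 7.39 TPM with a median of 3.22. The means of 172 ± 50.00 and 3.70 ± 2.26 TPM (SD, n = 4 and 6) differed by 5.51 (SE 0.58, adjusted p = 9.92e-06), and the classes stood far apart. hec (FBgn0030437, X:12950436-12957462, minus strand), a receptor related to those for calcitonin and its relatives, had 125 and 264 TPM in γd and 115 and 124 in γm+d, against α/β values from 0.92 to 14.1 TPM with a median of 3.22, a difference of 5.24 (SE 0.64, adjusted p = 6.55e-05). Its highest γ library, γd replicate 2, stood apart from the other 3.

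Pka-C3 (FBgn0000489, 3L:15925805-15954797, minus strand), a kinase related to the catalytic subunit of protein kinase A, had 1172 and 888 TPM in γd and 604 and 325 in γm+d. The α/β libraries ran from 5.94 to 72.3 TPM with a median of 14.6, the highest being α/βp replicate 2, and the difference was 5.46 (SE 0.53, adjusted p = 4.23e-06). cmpy (FBgn0037015, 3L:20712838-20719200, minus strand), which encodes a protein that binds the BMP ligand Gbb, had 210.2 and 318 TPM in γd and 392 and 609 in γm+d and 2.76 to 24.5 TPM over the α/β libraries. Its difference was 5.21 (SE 0.52, adjusted p = 6e-06). Both were also high in the α′/β′ libraries, at 312 to 758 TPM for Pka-C3 and 664 to 985 for cmpy. Lgr3, dlp and hec were low there, at no more than 12.3 TPM.

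dan (FBgn0039286, 3R:25184383-25192806, plus strand), a nuclear protein with a Pipsqueak-type DNA-binding domain, had 55.2 and 58.4 TPM in γd and 6.82 and 11.8 in γm+d, which places γd above γm+d. In α/β it had 0 and 0.12 TPM in α/βp, 0.29 and 0 in α/βs and 0.53 and 1.47 in α/βc (log2 difference 4.37 (SE 0.70, adjusted p = 0.00105)). The remaining genes of this group are known by number. CG10019 had 75.8 to 253 TPM in γ and 0.42 to 26.3 in α/β, and CG42655 had 36.2 to 122 and 0 to 16.97. Their log2 differences were 4.89 (adjusted p = 0.000246) and 3.94 (adjusted p = 0.00509). CG42655 was no longer called without γd and α/βp.

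**Figure D2:**
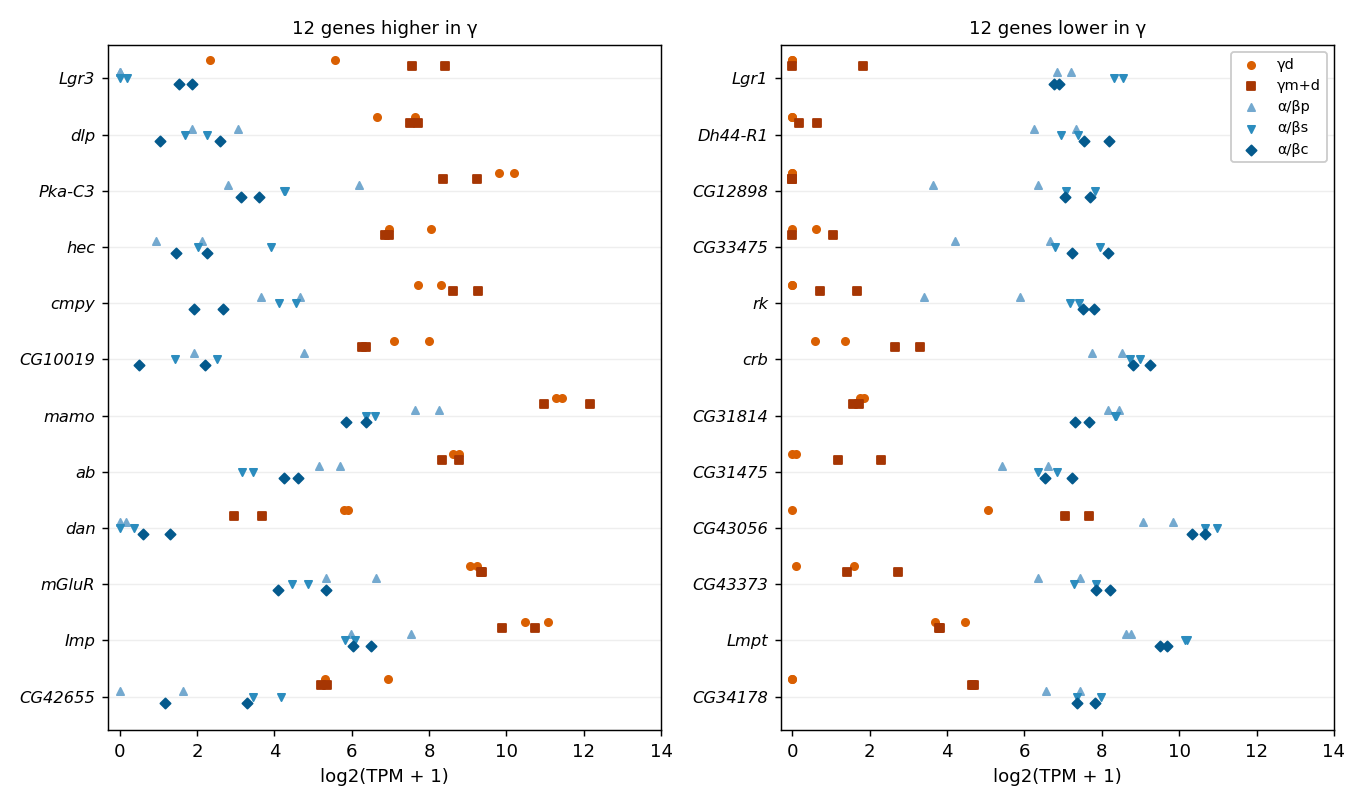
Level of the 12 genes with the largest rise and the 12 with the largest fall in γ among called genes without overlap and with a mean of at least 20 TPM in the higher class, as log2(TPM + 1) (horizontal axis), with 1 symbol per library and the subtype given by colour and shape. In the left panel all γ symbols lie to the right of the α/β symbols. In the right panel they lie to the left, many of them at 0.

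The 12 lower in γ by the same rule include the hormone receptors Lgr1, Dh44-R1 and rk and the polarity protein crb. Lgr1 (FBgn0016650, 3R:17725777-17733207, plus strand), the receptor for the glycoprotein hormone made of Gpa2 and Gpb5, was listed at 0 in 3 of the 4 γ libraries and at 2.55 TPM in γm+d replicate 2. It had 147 and 113 TPM in α/βp, 372 and 319.7 in α/βs and 118 and 107 in α/βc, and so was highest in α/βs. The log2 difference, -7.03 (SE 0.57, adjusted p = 8.34e-07), was the largest fall of any gene tested. Dh44-R1 (FBgn0033932, 2R:14378097-14385359, plus strand), a receptor for diuretic hormone 44, the fly relative of corticotropin-releasing factor, was listed at 0 in both γd libraries and had 0.12 and 0.55 TPM in γm+d. Its α/β values ran from 75.3 to 291 TPM with a median of 163, and the difference was -6.94 (SE 0.49, adjusted p = 1.75e-07).

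crb (FBgn0259685, 3R:24295078-24314541, plus strand), the apical polarity protein Crumbs, had 0.50 and 1.55 TPM in γd and 5.24 and 8.90 in γm+d. Over α/β it ran from 213 to 601 TPM with a median of 434, which gave a difference of -5.82 (SE 0.33, adjusted p = 1.21e-08). The lowest α/β library was 23.9 times the highest γ library. rk (FBgn0003255, 2L:13982743-14001248, minus strand), the receptor for the hormone bursicon, was listed at 0 in γd and had 0.65 and 2.17 TPM in γm+d, against 9.66 and 57.7 in α/βp, 143 and 170.2 in α/βs and 181 and 221 in α/βc. α/βp was thus the lowest of the α/β subtypes, and the difference was -5.93 (SE 0.69, adjusted p = 3.84e-05). Its exons share 527 bases with NimC2 on the opposite strand.

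Lmpt (FBgn0261565, 3L:16865295-16922487, plus strand), a protein with LIM domains, had 11.8 and 21.1 TPM in γd and 13.1 and 12.8 in γm+d, and 394 to 1174 TPM in α/β, a difference of -5.14 (SE 0.44, adjusted p = 1.63e-06). CG31814 was at 1.97 to 2.64 TPM in γ and 158 to 349 in α/β, a difference of -5.46 (SE 0.53, adjusted p = 4.72e-06). Both were narrow in γ, with every library within 2-fold of the others. CG12898 was listed at 0 in all 4 γ libraries and had 11.5 to 227 TPM in α/β, with α/βp replicate 2 far below the rest. CG33475, also on 2R and the minus strand, had 0 to 1.08 TPM in γ and 17.3 to 286 in α/β.

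CG31475, CG43373, CG43056 and CG34178 complete the 12, with log2 differences of -5.22, -5.14, -5.17 and -5.02. CG43056 and CG34178, neighbours on 2L, were listed at 0 in γd replicate 1. CG43056 had 203 and 131 TPM in γm+d and 537 to 2031 in α/β, and CG34178 had 24.7 and 24.1 and 93.4 to 253, so that γm+d lay nearer to α/β than γd did for both.

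Genes of birth order and temporal identity, which set the order in which the classes are made, were described next. Of 16 tested, ab, Imp and mamo were higher and br and Eip93F lower, against 3.10% of all genes called, with a list median of -0.53 on the log2 scale. Imp (FBgn0285926, X:10787869-10824277, minus strand), an RNA-binding protein that marks early-born neurons in the developing fly brain, had 1422 and 2145 TPM in γd and 1712 and 937 in γm+d. Its α/β libraries ran from 55.7 to 182 TPM with a median of 65.5, with α/βp replicate 1 the highest. The class means of 1554 ± 507 and 86.9 ± 48.2 TPM (SD, n = 4 and 6) differed by 4.21 (SE 0.42, adjusted p = 5.67e-06). Syp, the RNA-binding protein that opposes Imp in neuroblasts, had 747 to 1146 TPM in γ and 914 to 2068 in α/β and was not called (-0.53, adjusted p = 0.258). chinmo (FBgn0086758, 2L:1651258-1704682, plus strand), a BTB zinc finger protein needed for early Kenyon cell fates in development, had 113 to 333 TPM in γ and 262 to 708 in α/β, overlapping ranges that were not called (-0.54, adjusted p = 0.51).

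mamo (FBgn0267033, X:13846116-13990527, minus strand), a BTB zinc finger protein that acts after chinmo, had 2788 and 2468 TPM in γd and 4608 and 2013 in γm+d. In α/β it had 303 and 199 TPM in α/βp, 81.6 and 95.7 in α/βs and 81.7 and 56.4 in α/βc, so that α/βp stood above the other α/β subtypes and far below γ. The difference was 4.58 (SE 0.40, adjusted p = 1.67e-06). ab (FBgn0264442, 2L:11210678-11261080, plus strand), another BTB zinc finger protein, had 393 and 440.1 TPM in γd and 320.5 and 437 in γm+d and 7.97 to 50.5 TPM in α/β, a difference of 4.54 (SE 0.57, adjusted p = 9.02e-05). These genes parted in the third class: the α′/β′ libraries had 3055 to 6745 TPM of mamo, 118 to 372 of Imp and 5.27 to 26.8 of ab.

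br (FBgn0283451, X:1575132-1664869, plus strand), the ecdysone-induced factor Broad, had 111 and 30.1 TPM in γd and 48.4 and 44.3 in γm+d. It had 1504 and 967 TPM in α/βp but 157 and 166 in α/βs and 229 and 198 in α/βc, so α/βp stood far above the other α/β subtypes. The class difference was -2.47 (SE 0.60, adjusted p = 0.0262), and without γd and α/βp it was -1.86 and still called (adjusted p = 0.00618). Eip93F (FBgn0264490, 3R:21949114-22014539, plus strand), a late ecdysone-response factor, had 123 to 297 TPM in γ and 341 to 838 in α/β, with no overlap and a difference of -1.31 (SE 0.31, adjusted p = 0.0223). Neither call was firm. br was lost without γm+d replicate 1, γm+d replicate 2, γd replicate 2 or α/βp replicate 2, with an adjusted p of up to 0.0857 over the fits that left out 1 library. Eip93F was lost without γm+d replicate 1, γm+d replicate 2 or α/βs replicate 2, with an adjusted p of up to 0.0720. Both were also lost with median-ratio scaling (adjusted p = 0.082 and 0.278).

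**Figure D3:**
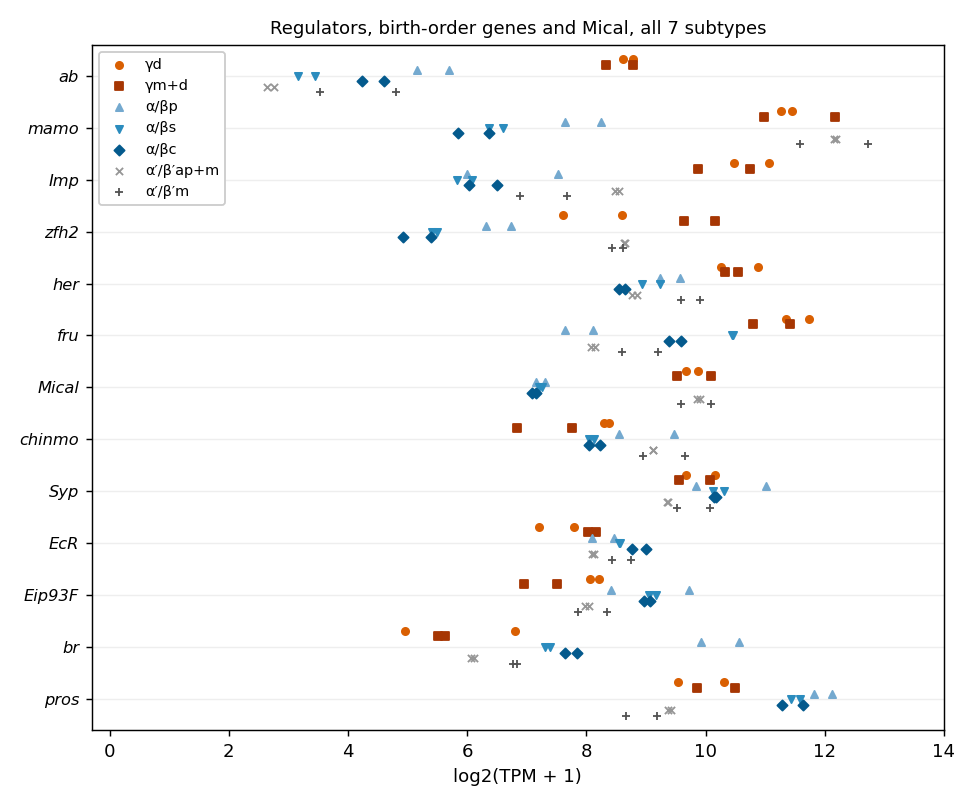
Level of 13 genes in all 14 libraries, as log2(TPM + 1) (horizontal axis), with colour and shape giving the subtype. ab, mamo, Imp, zfh2, her, fru and Mical lie further right in γ (orange) than in α/β (blue), Eip93F, br and pros further left, and chinmo, Syp and EcR overlap.

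Of 53 transcriptional regulators tested, 5 were higher (ab, fru, her, mamo and zfh2) and 2 lower (br and pros), against 1.43% and 1.67% of all genes, and the list median was -0.01. zfh2 (FBgn0004607, 4:501810-540874, plus strand), a zinc finger homeodomain protein, had 195 and 388 TPM in γd and 796 and 1142 in γm+d, with γm+d the higher of the γ subtypes. Its α/β libraries ran from 29.3 to 106 TPM with a median of 42.9, and the difference was 3.54 (SE 0.44, adjusted p = 9.02e-05). In the α′/β′ libraries zfh2 had 343 to 399 TPM. Its exons share 2325 bases with Tdg on the opposite strand, and as the sources used here do not say that strand was kept, reads of those bases may come from either gene. pros (FBgn0004595, 3R:11328480-11407627, plus strand), the homeodomain protein Prospero, had 741 to 1445 TPM in γ and 2495 to 4437 in α/β, a difference of -1.70 (SE 0.22, adjusted p = 0.000143) that was not called with median-ratio scaling (adjusted p = 0.0607). her (FBgn0001185, 2L:16677185-16679691, plus strand), a zinc finger protein of the sex determination pathway, had 1231 to 1887 TPM in γ and 372 to 756 in α/β (1.41 (SE 0.26, adjusted p = 0.00303)).

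fru (FBgn0004652, 3R:18414273-18545586, minus strand), the BTB zinc finger gene of male courtship, had 2596 and 3399.5 TPM in γd and 2746 and 1786 in γm+d. It had 277 and 198 TPM in α/βp, 1402 and 1385 in α/βs and 769.8 and 670.4 in α/βc. The α/β subtypes thus spread widely, with α/βs nearest to γ, and the difference of 1.89 (SE 0.48, adjusted p = 0.0365) was lost in 8 of the 10 fits that left out 1 library (all but those without an α/βs library), with an adjusted p of up to 0.113. Without γd and α/βp it was also lost (adjusted p = 0.189). ey, the Pax6 factor of the mushroom body, had 1273 to 2382 TPM in γ and 631 to 2809 in α/β and did not pass (-0.01, adjusted p = 0.991).

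Of 23 genes known for the remodelling of γ axons, 1 was called, close to the 3.10% of all genes, and the list median was -0.39. Without γd and α/βp 1 was higher and 2 lower of 22, in a fit that called 189 and 174 of 8154 genes. The gene called in the main test was Mical (FBgn0053208, 3R:10001554-10042895, minus strand), a flavoprotein that disassembles actin filaments. It had 809.9 and 934 TPM in γd and 729 and 1088 in γm+d, and the α/β libraries ran from 135 to 158 TPM with a median of 144. The α/β libraries lay close together, all below γ, and the difference was 2.57 (SE 0.20, adjusted p = 6e-07). The α′/β′ libraries, whose axons are not pruned, had 768 to 1089 TPM. EcR (FBgn0000546, 2R:6087873-6169087, minus strand), the ecdysone receptor, had 147 to 286 TPM in γ and 272 to 514 in α/β and was not called (-0.68, adjusted p = 0.181). babo, the activin receptor that acts before EcR, had 427 to 563 TPM in γ, all below the 579.8 to 757 TPM of α/β, yet the difference of -0.43 did not pass (adjusted p = 0.264).

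Receptors for neuropeptides and hormones held some of the widest differences. Of 26 tested, hec, Lgr3, SIFaR and TkR86C were higher and Dh44-R1, Lgr1 and rk lower, that is 7 of 26 against 3.10% of all genes, and the list median was -0.57. The list was made with earlier results of these data known, so its count is a description. SIFaR (FBgn0038880, 3R:21276664-21293998, minus strand), the receptor for SIFamide, had 129.9 and 147 TPM in γd and 169 and 183 in γm+d, and 22 to 68.6 TPM in α/β, a difference of 2.07 (SE 0.37, adjusted p = 0.00214). TkR86C (FBgn0004841, 3R:10737592-10751228, minus strand), a tachykinin-family receptor, had 74.2 and 63.2 TPM in γd and 55.1 and 107 in γm+d. In α/β it had 10.6 and 25.9 TPM in α/βp, 0 and 1.04 in α/βs and 26.1 and 9.55 in α/βc. α/βs was thus the lowest subtype, and the difference of 3.66 (SE 0.80, adjusted p = 0.0124) was not called without quantile normalization or with a pseudocount of 0.1. The receptor for sNPF itself, sNPF-R, was at most 1.21 TPM in γ and 25.7 in α/β.

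**Figure D4:**
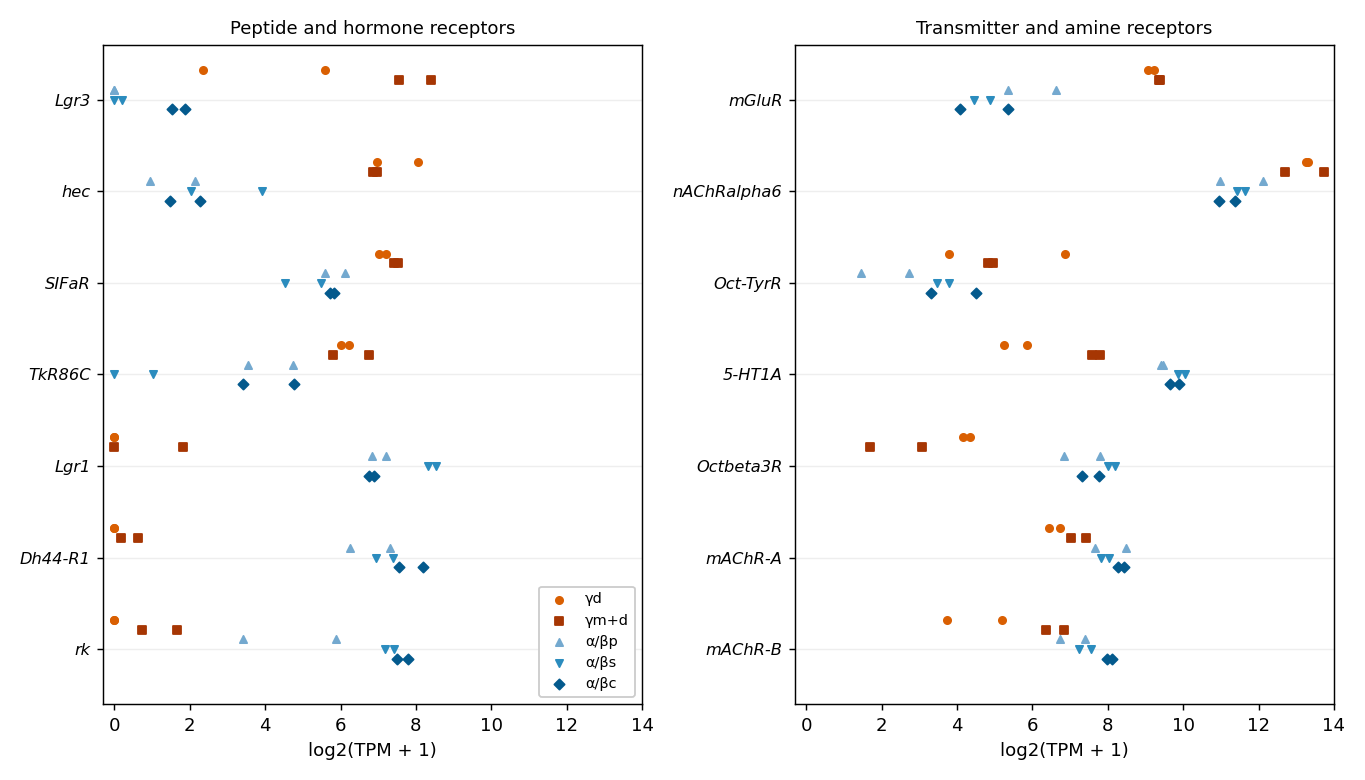
Level of the called receptor genes as log2(TPM + 1) (horizontal axis) in the 10 libraries, with peptide and hormone receptors on the left and transmitter and amine receptors on the right. Lgr1, Dh44-R1 and rk lie at or near 0 in every γ library, and Lgr3 at or near 0 in every α/β library.

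Among 27 neuropeptide genes tested, limma called 0 higher, against 1.43% of all genes, with 3 at an unadjusted p under 0.05. It called 4 lower, against 1.67% of all genes: Hug, ITP, Nplp1 and Nplp2 (list median -0.54). ITP (FBgn0035023, 2R:24537421-24558961, plus strand), ion transport peptide, had 10.97 to 24.6 TPM in γ and 110.2 to 251 in α/β, a difference of -2.73 (SE 0.46, adjusted p = 0.00154). Hug (FBgn0028374, 3R:12526188-12529076, plus strand), the hugin peptide precursor, had 0 to 2.16 TPM in γ and 10.1 to 43.2 in α/β (-3.53 (SE 0.60, adjusted p = 0.00159)), and lies within the span of Octbeta3R, described below with its own fall. Nplp1 had 10.7 to 15.1 TPM in γ and 21.3 to 141 in α/β, where α/βp replicate 1 was close to the γ level. Its difference of -2.20 (SE 0.55, adjusted p = 0.0319) was lost in 7 of the 10 fits that left out 1 library, each of those without an α/βs, an α/βc or a γm+d library and that without γd replicate 2, with an adjusted p of up to 0.101. Nplp2 was listed at 0 in all 4 γ libraries and had 0.77 to 36.6 TPM in α/β, and its call (adjusted p = 0.0474) was lost in 8 of those fits, all but those without α/βs replicate 2 or α/βp replicate 1, and under most of the other alternatives. sNPF (FBgn0032840, 2L:20027915-20056373, plus strand), the main peptide of these cells, had 564 to 959.7 TPM in γ and 306 to 595 in α/β and was not called (0.73 (SE 0.30, adjusted p = 0.235)), except with median-ratio scaling.

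Of 15 receptors for dopamine, serotonin, octopamine and tyramine, 1 was higher and 2 lower, against 1.43% and 1.67% of all genes (list median -0.04). 5-HT1A (FBgn0004168, 2R:19067155-19121958, plus strand), an inhibitory serotonin receptor, had 36.7 and 56.6 TPM in γd and 189 and 219 in γm+d, so that γd was the lowest. Its α/β libraries ran from 678 to 1049.6 TPM with a median of 869.6, and the difference was -2.84 (SE 0.31, adjusted p = 1.68e-05). Octbeta3R (FBgn0250910, 3R:12511570-12548229, minus strand), an octopamine receptor that raises cAMP, had 19.2 and 16.7 TPM in γd and 2.25 and 7.42 in γm+d, and 113 to 289 TPM in α/β (-3.97 (SE 0.59, adjusted p = 0.000525)). In contrast to 5-HT1A, its lowest values were in γm+d. Oct-TyrR (FBgn0004514, 3L:22035003-22065279, plus strand), an octopamine and tyramine receptor, had 114 and 12.9 TPM in γd and 29.9 and 27.1 in γm+d and 1.74 to 21.5 TPM in α/β. The ranges overlapped, and the difference of 2.24 (SE 0.60, adjusted p = 0.04998) was lost in 9 of the 10 fits that left out 1 library, all but that without γm+d replicate 2, with an adjusted p of up to 0.169.

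None of the 4 dopamine receptors was called by limma, where 3.10% of all genes were, and none had an unadjusted p under 0.05. With so few genes, this count cannot be told apart from that share. Dop1R1, needed for learning, had 655 to 1243 TPM in γ and 361 to 1229.6 in α/β (-0.14, adjusted p = 0.872), and Dop2R, which lowers cAMP, had 488 to 1291 and 334 to 839.8 (0.45, adjusted p = 0.492). For Dop1R2 and DopEcR the differences were -0.11 and -0.04. The ranges of both classes overlapped for each of them, as for all genes tested but the 1.31% above and the 3.01% below.

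Among 23 receptors for acetylcholine, GABA and glutamate, mGluR and nAChRalpha6 were higher and the muscarinic receptors mAChR-A and mAChR-B lower, against 1.43% and 1.67% of all genes (list median 0.38). mGluR (FBgn0019985, 4:936819-949441, plus strand), the metabotropic glutamate receptor, had 533 and 602 TPM in γd and 662 and 652 in γm+d. The α/β values ran from 16 to 97.2 TPM with a median of 33.8, and the means of 612 ± 58.8 and 40.2 ± 29.5 TPM (SD, n = 4 and 6) differed by 4.31 (SE 0.39, adjusted p = 2.6e-06) on the log2 scale. nAChRalpha6 (FBgn0032151, 2L:9793317-9886250, minus strand), a nicotinic receptor subunit, was abundant in both classes, with 6684 to 13762 TPM in γ and 1963 to 4449.9 in α/β, and higher in γ by 1.66 (SE 0.16, adjusted p = 3.86e-06). mGluR and nAChRalpha6 were also high in the α′/β′ libraries, at 464 to 530 TPM and 9347 to 16639 TPM. mAChR-A had 86.4 to 171 TPM in γ and 200.4 to 358 in α/β (-1.04 (SE 0.25, adjusted p = 0.0265)), and mAChR-B had 12.2 to 113 and 106 to 276 (-1.46 (SE 0.35, adjusted p = 0.0257)). Both muscarinic calls were weak. mAChR-A was lost in 7 of the 10 fits that left out 1 library, all but those without γm+d replicate 2, α/βs replicate 2 or α/βp replicate 1, with an adjusted p of up to 0.0720. mAChR-B was lost in 5, those without either γd library, either α/βc library or α/βs replicate 1, with an adjusted p of up to 0.0849. Without quantile normalization mAChR-A was not called.

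The cAMP pathway, through which Kenyon cells register coincident odour and dopamine, held 4 calls among 29 genes, against 3.10% of all genes (list median 0.31). Beside Pka-C3, Epac (FBgn0085421, 2R:6759715-6798941, minus strand), a cAMP-activated exchange factor for Rap GTPases, had 58.4 and 71.5 TPM in γd and 88.99 and 125 in γm+d, and 26.8 to 77.6 TPM in α/β. α/βp replicate 2 overlapped γ, and the difference of 1.58 (SE 0.31, adjusted p = 0.00478) was not called without quantile normalization. In the α′/β′ libraries Epac had 468 to 761 TPM, above both other classes. The phosphodiesterases, which break cyclic nucleotides down, did not move together. Pde6 (FBgn0038237, 3R:14513901-14558304, minus strand) had 1.75 to 14.9 TPM in γ and 29.6 to 203 in α/β, and Pde8 had 102 to 189 and 419.8 to 935. Their differences were -3.12 (SE 0.52, adjusted p = 0.00124) and -1.92 (SE 0.26, adjusted p = 0.000179). Pde1c, with 1314 to 2051 and 690.0 to 1204 TPM, and dnc, the phosphodiesterase of the dunce learning mutant, with 1680.1 to 2273 and 759 to 1644 TPM, lay higher in all γ libraries. Their differences of 0.81 (SE 0.22, adjusted p = 0.0448) and 0.88 (SE 0.18, adjusted p = 0.0077) passed the adjusted p but stayed under 2-fold and were not called.

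Of 21 genes known from classical memory mutants, limma called 0 in either direction, where 3.10% of all genes were called, with 5 at an unadjusted p under 0.05 (list median -0.06). rut, the calcium-dependent adenylyl cyclase, had 949 to 1829 TPM in γ and 787 to 1276 in α/β (0.31, adjusted p = 0.539). Fas2 (FBgn0000635, X:4132887-4206093, minus strand), a cell adhesion molecule of the lobes, had 974 and 1129 TPM in γd and 506 and 329 in γm+d and 619.5 to 1119.8 TPM in α/β. γd thus lay at the upper end of the α/β range and γm+d below it, and the class difference of -0.61 (SE 0.34, adjusted p = 0.427) was not called. Without γd and α/βp, which leaves γm+d as the γ group, Fas2 was called lower.

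Among cell surface proteins, the Dpr family and its DIP partners, immunoglobulin proteins that pair across synapses, held 4 calls of 27 tested, against 3.10% of all genes (list median 0.13). dpr15 (FBgn0037993, 3R:12138833-12158595, minus strand) had 7.04 to 38.6 TPM in γ and 0.11 to 5.47 in α/β, and dpr8 had 1725 to 3167 and 632 to 1279. They were higher by 3.41 (SE 0.60, adjusted p = 0.00219) and 1.03 (SE 0.21, adjusted p = 0.00821). Both were also high in the α′/β′ libraries, at 45.4 to 74.1 TPM for dpr15 and 2705 to 3187 for dpr8. dpr8 fell under the threshold without γm+d replicate 1, γm+d replicate 2 or α/βp replicate 2, with a log2 difference down to 0.89. dpr6 had 11.1 and 33.6 TPM in γd and 61.2 and 82.4 in γm+d, against 82.5 to 492 TPM in α/β (-2.35 (SE 0.40, adjusted p = 0.00164)). dpr3 had 6.17 to 22.4 TPM in γ and 75.2 to 153 in α/β (-2.60 (SE 0.58, adjusted p = 0.0136)), and was lost without γm+d replicate 1 (adjusted p = 0.0642). The family thus held genes of both directions, and no DIP was among the calls. DIP-alpha lay below α/β in every γ library (11.96 to 19.5 against 19.8 to 39.8 TPM, not called), as 3.01% of all genes did. Its lowest α/β library was only 1.01 times its highest γ library.

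Of 73 other surface and guidance genes, 2 were higher and 1 lower (list median 0.18), close to the 3.10% of all genes. Without γd and α/βp 8 were higher and 4 lower of 71, in a fit that called 189 and 174 of 8154 genes. beat-VII (FBgn0250908, 3R:26645282-26681966, minus strand), of the Beaten path immunoglobulin family, had 1.24 and 12.7 TPM in γd and 12.5 and 5.58 in γm+d. The 6 α/β values ran from 161 to 317 TPM with a median of 300.5, none near the γ range, and the difference was -4.39 (SE 0.43, adjusted p = 4.72e-06). Sema2b (FBgn0264273, 2R:16386524-16431758, plus strand), a secreted semaphorin, had 165 to 335 TPM in γ and 41.1 to 99.4 in α/β (2.23 (SE 0.30, adjusted p = 0.000168)). In the α′/β′ libraries Sema2b had 176 to 245 TPM. ed, the adhesion molecule Echinoid, had 42.1 to 96.8 and 7.72 to 45.8 TPM, overlapping through α/βp replicate 1. Its difference of 2.58 (SE 0.63, adjusted p = 0.0265) was lost in 6 of the 10 fits that left out 1 library (either γd, γm+d replicate 1, either α/βs, α/βp replicate 2), with an adjusted p of up to 0.0926.

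trio (FBgn0024277, 3L:995982-1034875, minus strand), an exchange factor for Rac, had 564 to 862 TPM in γ and 66.5 to 231 in α/β, with no overlap (1.96 (SE 0.29, adjusted p = 0.000525)). It had 793 to 1690 TPM in the α′/β′ libraries. mbc, an exchange factor for Rac in cell fusion and migration, had 2.00 and 14.2 TPM in γd and 19.1 and 38.05 in γm+d and 54.9 to 141 TPM in α/β (-1.74 (SE 0.39, adjusted p = 0.0158)), and was not called without γd and α/βp.

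Of 36 ion channels tested, 1 was higher in γ and 4 lower, against 1.43% and 1.67% of all genes, and the list median of -0.07 was close to the -0.11 over all genes. Ca-alpha1T (FBgn0264386, X:6104085-6192483, minus strand), the T-type calcium channel, which opens at low voltage, had 19.8 and 27.8 TPM in γd and 63.9 and 61.2 in γm+d. In α/β it ran from 968 to 1296 TPM with a median of 1107, a narrow range, and the lowest of these was 15.1 times the highest γ library. The difference was -4.41 (SE 0.35, adjusted p = 6e-07). KCNQ (FBgn0033494, 2R:10145897-10192394, minus strand), a slow voltage-gated potassium channel, had 19.8 and 109 TPM in γd and 201 and 273 in γm+d, and 536 to 836 TPM in α/β (-2.39 (SE 0.38, adjusted p = 0.000972)). tipE, an auxiliary subunit of the sodium channel para, had 37.2 to 112 TPM in γ and 236 to 417 in α/β (-1.76 (SE 0.27, adjusted p = 0.000688)).

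Irk1, an inward rectifier potassium channel, was low in both classes, with 0 to 2.14 TPM in γ and 9.07 to 40.5 in α/β. Its difference of -3.16 (SE 0.70, adjusted p = 0.0144) was lost without γm+d replicate 2 (adjusted p = 0.0513), and it shares 3202 exonic bases on the same strand with CG46310, itself called lower, so their reads could be divided between them. Trpm (FBgn0265194, 2R:15262808-15309368, minus strand), a cation channel of the TRP family, went the other way, with 611 to 928 TPM in γ and 77.8 to 309 in α/β (2.14 (SE 0.32, adjusted p = 0.000577)).

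**Figure D5:**
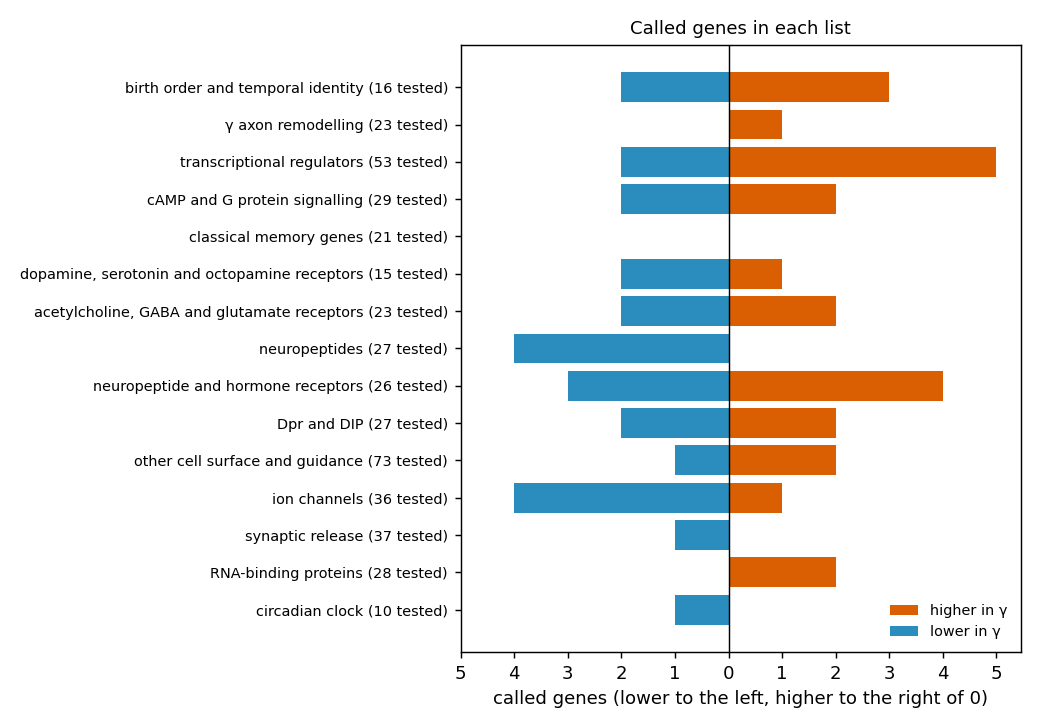
Number of called genes in each of 15 lists, with genes higher in γ drawn to the right and genes lower in γ to the left, and the number of genes tested in parentheses. The lists with the most calls are transcriptional regulators, at 7 of 53, and neuropeptide and hormone receptors, at 7 of 26, where 3.10% of all genes tested were called.

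Of 37 genes of synaptic release, 1 was called, close to the 3.10% of all genes (list median 0.11). It was Syt12, of the synaptotagmin family, with 12.1 to 45.1 TPM in γ and 78.7 to 221 in α/β (-1.92 (SE 0.32, adjusted p = 0.00124)). Of 28 RNA-binding proteins, Imp and Rbp6 were higher, against 1.43% of all genes, and limma called 0 lower, against 1.67%, with 2 at an unadjusted p under 0.05 (list median -0.05). Rbp6 (FBgn0260943, 3L:17058774-17238212, minus strand), of the Musashi family, had 2982 and 2865 TPM in γd and 1717 and 1022 in γm+d. It had 931 and 527 TPM in α/βp, 194 and 216 in α/βs and 165 and 116 in α/βc, so α/βp was again nearest to γ (2.77 (SE 0.46, adjusted p = 0.00124)). In the α′/β′ libraries Rbp6 had 1928 to 2916 TPM. Of 10 clock genes 1 was called, where 3.10% of all genes were (list median 0.09). That gene, per (FBgn0003068, X:2685580-2692780, plus strand), was lower, at 0 to 1.19 TPM in γ and 6.69 to 25.2 in α/β (-3.22 (SE 0.55, adjusted p = 0.00155)). The flies were frozen in the daytime over a window of several hours, and the clock phase of each library is not given in the sources used here.

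Levels of the subtypes within a class were also set side by side. Of the 28 named genes higher in γ, both γd libraries lay above both γm+d libraries in 5 and below them in 8, and of the 35 lower genes in 5 and 14. The share of all genes that met this criterion was not computed, so these counts are not a result about the named genes. By another measure, the mean of γd lay below that of γm+d in 5030 of all 8646 genes tested. The median difference was -0.23 on the log2 scale, so lower values in γd were general. For the 124 higher genes, α/βp had the highest mean of the α/β subtypes in 63, against 3047 of all 8646, and lay 0.34 above the mean of α/βs and α/βc on the log2 scale in the median. For the 144 lower genes α/βp had the lowest mean in 78, against 3967 of 8646, with a median of -0.36. Over all genes tested that median was -0.17. As the α/βp libraries entered the contrast that made the calls, these are descriptions.

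The leading transcript of the named called genes was mostly shared by both classes. Among 52 named called genes with more than 1 transcript and values in both classes, 36 had the same leading transcript by mean TPM. The share over all genes was not computed. In some genes a class was near 0, such as Lgr1 in γ (RA, mean 0.64 TPM). In others the leading transcripts had identical values, such as RA and RB of dan. fru had RA leading in γ, with 27.0% of its TPM, and RK in α/β, with 27.1%. mamo had RC leading in γ with 38.8% and RE in α/β with 51.8%, and ab RB with 39.2% and RE with 50.6%. kallisto infers these shares from reads that transcripts have in common, so no test was made on them.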

How the data were processed

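Nuclear RNA of 7 Kenyon cell subtypes was sequenced by TAPIN-seq, with 2 independent biological replicates each. After trimming with seqtk, the authors ran kallisto against Ensembl's BDGP6 (dm6) transcriptome, dropped what came from spike-ins, the reporter and ribosomal RNA, and deposited what was left in TPM. Whether the libraries keep strand and the kallisto version are not given in the sources used here. TPM keep no read depth, so no interval or detection limit was computed, and a value of 0 is given as listed at 0. 0 columns of per-sample values remained without a sample. Estimated counts were not used here, so log2(TPM + 1) was tested in place of counts.

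Differences were tested with limma 3.58.1 in R 4.3.3 on log2(TPM + 1), with a pseudocount of 1, quantile-normalized over the 14 libraries. Genes that reached 10 TPM in 1 or more libraries entered. The fit had 1 mean per class and a variance trend (eBayes), and p-values were two-sided and adjusted by the Benjamini-Hochberg method over the 8646 genes. Calls required both an adjusted p below 0.05 and a 2-fold or larger difference. Differences are γ minus α/β, so a positive value is higher in γ.

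Genes are named by 3 rules: in each direction the 12 called genes with the largest difference whose classes did not overlap and whose higher class had a mean of at least 20 TPM, every called member of 16 lists, and 18 landmark genes, 72 genes in all. The counts of 1 of the lists are not reported here. The genes, lists, rules and alternatives were chosen with earlier results of these data known. The alternatives were pseudocounts of 0.1 and 5, no quantile normalization, median-ratio scaling, no filter or 10 TPM in 2 libraries, no variance trend, the 10 γ and α/β libraries alone, a subtype model, 1 value per driver, the driver as a random block, a replicate block, the libraries without γd and α/βp, and each library left out. Counting identical profiles once was chosen after seeing the data. Gene positions and shared exons were read from Ensembl's gene models for this assembly, which held 8577 of the 8646 genes and 71 of the 72 named ones. Exons were shared with another gene on the same strand in 8 named genes and on the opposite strand in 19. Only some of these are given above. Others include Imp (1955 bases), CG43373 (934) and CG34178 (882), all on the same strand. The fit was tested on simulated data with known changes. Figures were drawn in Python 3.11.15.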

Additional observations from a re-analysis of the deposited data

Results flagged for a closer look

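For each of the 72 named genes, also repo, which was not tested, the γ and α/β values were searched for a library apart from the rest of its class. The measure was the ratio of its gap to the range of the class. Of 144 groups of a gene and a class 10 held such a library, and chance gives about 1 in 20. The 144 include groups with all values equal, such as CG12898 and Nplp2 in γ, which could not be flagged. In γ, hec stood at 263.5 TPM in γd replicate 2, with 125 TPM the nearest other γ library, and CG42655 at 122 TPM in γd replicate 1, with 40.4 the nearest. γm+d replicate 2 was the high library for Lgr1 (2.55 TPM, the other 3 listed at 0), Hug (2.16 TPM, nearest 0.18) and per (1.19 TPM, nearest 0.13).

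The other 5 lay in α/β, and all of them in α/βp. In α/βp replicate 1, Nplp1 was low at 21.3 TPM (nearest 73.8), trio was low at 66.5 TPM (nearest 172) and chinmo was high at 708 TPM (nearest 372). In α/βp replicate 2, CG12898 was low at 11.5 TPM (nearest 80.2) and dpr8 was low at 632 TPM (nearest 1104). No cause was tested.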

How the results depend on the processing

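None of the 63 named called genes changed direction under any alternative. As they were selected in these same data at a 2-fold or larger difference, this was likely beforehand and is a description. The uncalled ey and elav, near 0, changed sign under some. The number of genes higher in γ, 124 in the main test, moved beyond 1.5 times to 71 without quantile normalization (68 of them among the 124), 243 with a subtype model, 25 with 1 value per driver and 189 without γd and α/βp. The number lower, 144, moved to 263 with a subtype model and 32 with 1 value per driver. With 1 value per driver, γ rests on 2 values and α/β on 3, and 32 of the 63 named called genes lost their call. Every gene it called was among the main calls. With each library left out in turn, the counts ran from 84 (without γm+d replicate 1) to 159 (without α/βp replicate 1) higher and from 110 (without γd replicate 2) to 182 (without α/βp replicate 1) lower, and 51 of the 63 named called genes kept their call in each of the 10 fits. With the driver as a random block 83 were higher and 102 lower.

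br was also lost with no filter (adjusted p = 0.0817), no variance trend (0.0747) and the 10 γ and α/β libraries alone (0.053), and Eip93F with the same alternatives (0.0517, 0.0942 and 0.0501).

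By the rule that every pair pass 0.1, replicate numbers did not pair the libraries: over 21 pairs of drivers the correlation of same-numbered deviations ran from -0.06 to 0.21 and passed 0.1 in 3, the pairs among γm+d, α/βp and α′/β′m. With a replicate block the counts were 125 higher (119 of the main 124) and 144 lower (140 of the 144), and Nplp2 was the 1 named gene that lost its call (adjusted p = 0.0525).

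TPM hold no depth, so the error of values near 0 is unknown, also in γd replicate 1 and α/βp replicate 1, the libraries of each class with the fewest genes above 0. Each driver gave 2 libraries, and the driver and the subtype cannot be told apart.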

Other observations

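Some called genes were neighbours. Counting only tested genes, 67 of the 268 called genes formed 29 runs of neighbours, and 27 of these runs held 1 direction only. How many runs as many genes would form at random positions was not computed, so these counts are descriptions. The runs include Irk1 with CG46310, which share exonic bases, and Octbeta3R with Hug, which lies within its span. The longest, on 3L from 20712838 to 20755685 (BDGP6), held cmpy, CG34260, CG13252, Gr77a and CG33912, all higher in γ. CG34260 had 3.12 and 88.6 TPM in γd and 214 and 347 in γm+d, and 0 to 8.94 TPM in α/β (5.82 (SE 0.73, adjusted p = 9.02e-05)), and CG33912 had 2.33 and 24.6 TPM in γd and 38.8 and 59.3 in γm+d and 0 to 2.80 (4.69 (SE 0.64, adjusted p = 0.000192)). Both had less in γd than in γm+d, as cmpy did, and γd replicate 1 overlapped α/β in CG34260 and CG33912. Nuclear RNA can hold unspliced and read-through transcripts, and whether neighbours share reads was not tested.

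The called genes were longer, in the median, than the tested genes as a whole, and more abundant in the class in which they were higher. Genes higher in γ had a median of 87.6 TPM in γ, against 11.85 over all genes tested. Genes lower in γ had a median of 153 TPM in α/β, against 18.3. Whether the length follows the abundance was not tested. The median gene span was 11406 bases for genes higher in γ and 11426 bases for genes lower, against 2700 bases over all tested genes in the annotation, and the median exonic length 3682 and 3222 bases against 2025.

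The following genes lie outside the lists and were chosen after their values were seen. Hs3st-A, a sulfotransferase that modifies heparan sulfate, had 89.2 to 129 TPM in γ and 289 to 407 in α/β (-1.60 (SE 0.22, adjusted p = 0.000179)), and Hs2st, another, had 0.29 to 38.4 and 50.2 to 62.5 (adjusted p = 0.0413). Rgk2, a small GTPase of the family that regulates calcium channels, had 47.7 and 48.8 TPM in γd and 75.98 and 72.98 in γm+d and 489 to 1087 TPM in α/β (-3.50 (SE 0.32, adjusted p = 3.11e-06)). Calx, the sodium and calcium exchanger, was higher in γ, with 644 to 1033 against 125 to 289 TPM (1.92 (SE 0.25, adjusted p = 0.000144)). Cngl, related to cyclic nucleotide-gated channels, was abundant and higher too, with 5721 to 11887 against 1237 to 4439 TPM (1.89 (SE 0.25, adjusted p = 0.000181)). Toll-6 and Toll-7, receptors for neurotrophin-like ligands, were both higher, by 1.86 (SE 0.44, adjusted p = 0.0217) and 2.71 (SE 0.58, adjusted p = 0.0115). Each of the genes in this paragraph was without overlap between the classes.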
